A study of Drosophila melanogaster with 17 samples.

Results

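The comparison described here set the brains of flies with human wild-type TyrRS carrying a disrupted nuclear localization signal (TyrRS-WT-NLS, 3 libraries) against driver-only control brains (nSyb>+, 3 libraries). These 6 of the 17 libraries of the series were chosen by genotype label alone. The series profiled RNA of dissected fly brains at 10 days of age in 5 genotypes. Every genotype carried nSyb-Gal4, a driver active in all neurons, so the controls had the driver and no TyrRS transgene. TyrRS-WT-NLS flies carried 2 copies of their UAS transgene. TyrRS-WT flies carried 2 copies of the transgene with the signal intact, and their 3 libraries served as the nearest comparison. The other genotypes were TyrRS-E196K (1 copy, 4 libraries), which has a substitution that causes neuropathy in people, and TyrRS-E196K-NLS (3 copies, 4 libraries), so the number of copies changed with the genotype. The labels write NLS where the publication marks the signal as disrupted. The labels do not say whether the libraries of a genotype came from separate crosses or cultures, so the p-values measure the spread between these samples, which may be technical. The human transcript has no entry in the fly annotation and was not measured, so transgene expression was not compared here. The study, whose methods name Western blot for the lines' expression levels, describes expression as similar across them. TyrRS-WT-NLS was the exception, where it was a little lower. Western blot measures protein, not transcript.

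TyrRS, the tyrosyl-tRNA synthetase, joins tyrosine to its tRNA in the cytoplasm for protein synthesis. It also enters nuclei through a nuclear localization signal, where the human protein is known to bind regulators of transcription. A protein with this signal disrupted keeps its catalytic domain and is used to separate cytoplasmic from nuclear activity. A difference from control in these brains therefore concerns overexpression with the signal disrupted, together with the insertions and genetic background of the line. These cannot be told apart in this design.

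Control libraries held 29380481 to 41859207 counts on genes and TyrRS-WT-NLS libraries 48288399 to 56030758, so control was the shallower group. Rank correlations across genes between libraries of one genotype ranged from 0.9698 to 0.9891 in control and from 0.9825 to 0.992 in TyrRS-WT-NLS. Pairs of libraries of one genotype differed by more than sampling noise, with a chi-square per gene of 77.31 to 172.2, so no library was counted as a repeat of another. One TyrRS-WT-NLS library has different numbers in its label and its table column, and is called unnumbered here. The methods name a library of this genotype, with the label's number, among 3 outliers that were taken out. Levels are in CPM, a gene's counts relative to the library's total on genes with TMM scaling, and folds are on a log2 scale with their standard error (SE). A gene is called where edgeR's quasi-likelihood test gave a Benjamini-Hochberg adjusted p under 0.05.

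TyrRS-WT-NLS brains had 620 called genes of 16163 tested, or 3.84%. Of these, 386 were higher than in control (2.39%) and 234 were lower (1.45%). Counts of called members in the gene lists below stand beside these shares. A count near its share is not a result about that list. A change of at least 2-fold was seen in 142 of the higher and 110 of the lower genes. Protein-coding genes made up 547 of the calls and non-coding RNA genes 48. The count rested in part on single libraries. It was 321 without control 1, 298 without control 3, 367 without TyrRS-WT-NLS 1 and 373 without TyrRS-WT-NLS 2, and 215 genes were called in each of the 6 fits that left out 1 library.

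**Figure D1:**
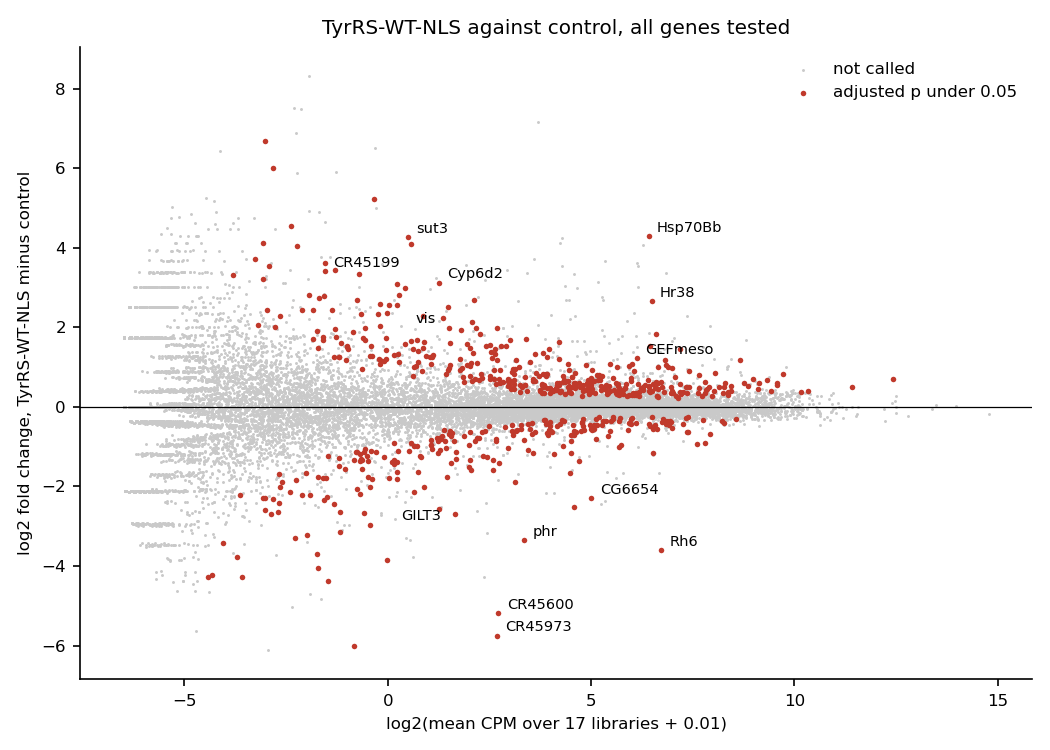
Each point is 1 of the 16163 genes tested, with log2(mean CPM over the 17 libraries + 0.01) on the x axis and the log2 fold change of TyrRS-WT-NLS minus control on the y axis; red points are the 620 called genes. CR45973 (-5.75) and CR45600 (-5.19) lie lowest among the named genes, and Hsp70Bb (4.30) and sut3 (4.27) highest.

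The fly's own tyrosyl-tRNA synthetase gene, Aats-tyr (FBgn0027080, 3L:16417349-16419302 in BDGP6), was measured at 40.7, 50.5 and 46.9 CPM in control and at 47.2, 58.2 and 63.5 CPM in TyrRS-WT-NLS. The groups overlapped, with a log2 difference of 0.29 (SE 0.13, adjusted p = 0.242 by edgeR). A pair of genes that resemble parts of the pUAST vector were higher. The eye pigment transporter w, whose mini-gene marks pUAST insertions, was at 31.0, 30.3 and 26.8 CPM in control and at 69.7, 62.0 and 67.0 CPM in TyrRS-WT-NLS (log2 1.17, SE 0.09, adjusted p = 1.73e-07). Its range was 81.7 to 99.95 CPM in TyrRS-WT, 113 to 140.3 CPM in TyrRS-E196K and 210.4 to 223 CPM in TyrRS-E196K-NLS, so none of the 5 genotypes' ranges overlapped. Hsp70Bb, a copy of the inducible heat shock gene whose promoter and leader pUAST borrows, was at 2.62, 2.36 and 2.96 CPM in control and at 78.6, 40.2 and 37.9 CPM in TyrRS-WT-NLS (log2 4.30, SE 0.29, adjusted p = 1.60e-06). The range of Hsp70Bb in TyrRS-WT was 70.8 to 77.8 CPM, a difference that was not called (adjusted p = 0.533). Hsp70Bb was at 64.5 to 107.9 CPM in TyrRS-E196K and at 154 to 207 CPM in TyrRS-E196K-NLS. Every transgenic genotype was thus called higher than control for this gene. Reads of near-identical Hsp70 copies can be split or lost in counting, and the part of vector sequence in the reads of w and Hsp70Bb was not tested.

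The fall with the clearest place in the nervous system was in Rh6 (FBgn0019940, 3R:15483158-15484699), the opsin of a subset of R8 photoreceptors. Rh6 was at 144, 160.3 and 195 CPM in control and at 10.8, 14.5 and 16.1 CPM in TyrRS-WT-NLS (log2 -3.59, SE 0.33, adjusted p = 3.82e-05). Every TyrRS-WT-NLS library lay below every other library of the series, whose ranges were 83.6 to 93.6 CPM in TyrRS-WT, 83.2 to 171 CPM in TyrRS-E196K and 85.1 to 192 CPM in TyrRS-E196K-NLS. Against TyrRS-WT the log2 difference was -2.68 (SE 0.32, adjusted p = 5.67e-04). The opsin of the other R8 subset, Rh5, was at 99.5, 121 and 160.3 CPM in control and at 197, 178 and 157 CPM in TyrRS-WT-NLS, with ranges that overlapped (log2 0.48, adjusted p = 0.573). The main opsin ninaE, of the outer photoreceptors, was at 7605, 9677 and 9547 CPM in control and at 8130, 8371 and 6360 CPM in TyrRS-WT-NLS (log2 -0.23, adjusted p = 0.717). Rh3 and Rh4, the ultraviolet opsins of R7 cells, also overlapped between the groups, at 198 to 274 against 157 to 254 CPM and at 257 to 384 against 264 to 359 CPM. Of 14 opsin and phototransduction genes tested, Rh6 was the 1 called, beside 3.84% of all genes tested. The median log2 difference of the 14 was -0.20 beside 0 over all genes tested. These genes summed to 16380 to 21292 CPM in control, to 13325 to 18059 CPM with TyrRS-WT-NLS and 9083 to 11271 CPM with TyrRS-WT, so photoreceptor transcripts were abundant in all 3. In bulk RNA, fewer cells of a type and less RNA per cell cannot be told apart.

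**Figure D2:**
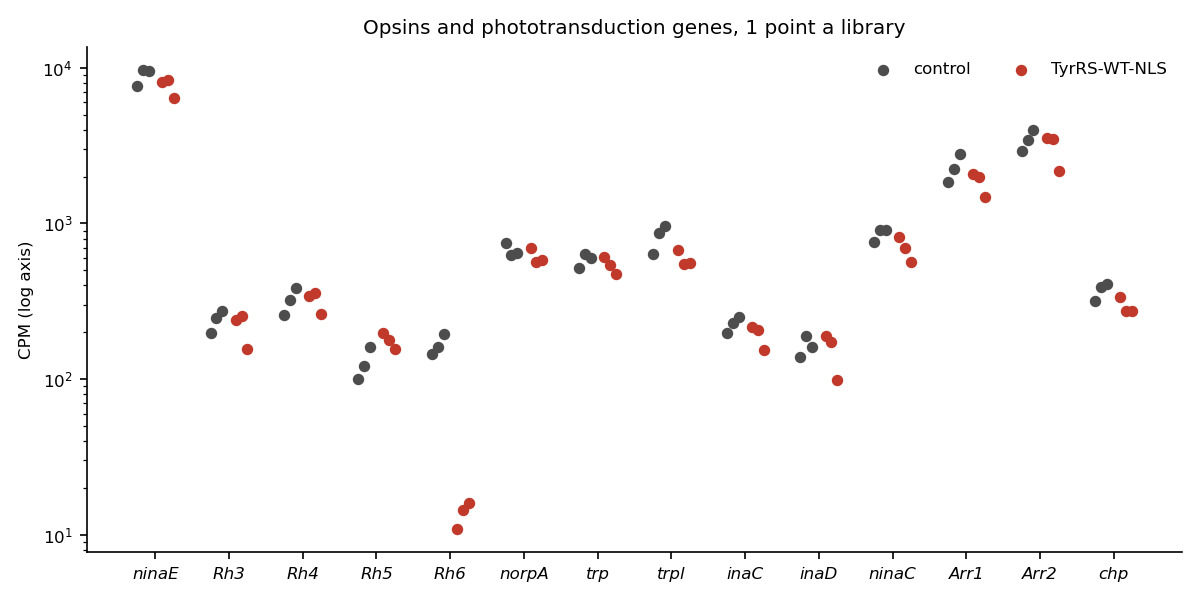
Each point is the CPM of 1 library on a log axis for 5 opsins and 9 further photoreceptor genes, in control (grey, n = 3) and TyrRS-WT-NLS (red, n = 3). Rh6 separates the groups, at 144 to 195 against 10.8 to 16.1 CPM, while Rh5, at 99.5 to 160.3 against 157 to 197 CPM, does not.

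Rh6 faces the neuropeptide gene Trissin (3R:15484730-15485396) on the opposite strand, 30 bp from its end. Trissin was at 46.1, 49.0 and 54.9 CPM in control and at 38.4, 42.2 and 37.6 CPM in TyrRS-WT-NLS, lower in each library (log2 -0.34, adjusted p = 0.029). That call was lost without control 3 (log2 -0.27), without TyrRS-WT-NLS 1 (-0.33) and without the unnumbered library (-0.31). The libraries do not mark strand, so reads that run past the end of either gene cannot be assigned.

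Among the other large falls were 2 non-coding RNA genes. CR45973 (3L:20404270-20407558) was at 11.8, 8.84 and 12.7 CPM in control and at 0.130, 0.163 and 0.318 CPM in TyrRS-WT-NLS (log2 -5.75, SE 0.29, adjusted p = 1.45e-09). Its range was 0.0862 to 0.239 CPM in TyrRS-WT, 8.16 to 9.63 CPM in TyrRS-E196K and 8.68 to 10.6 CPM in TyrRS-E196K-NLS. CR45600 (3R:15136985-15140121) was at 39.0, 32.3 and 26.2 CPM in control and at 1.06, 0.733 and 0.862 CPM in TyrRS-WT-NLS (log2 -5.19, SE 0.21, adjusted p = 3.27e-11). Every transgenic genotype had this fall from control, with log2 -4.67 in TyrRS-WT, -4.95 in TyrRS-E196K and -5.08 in TyrRS-E196K-NLS. CR45600 overlaps CG6912 at its end and on the same strand. CG6912 fell from 81.3, 85.3 and 69.2 CPM to 17.7, 11.3 and 12.4 CPM (log2 -2.51), and CG3987, which overlaps the start of CR45600 on the other strand, was also lower (log2 -1.34, adjusted p = 0.0329). Reads in the overlaps of these 3 genes cannot be assigned, so their values are uncertain. CG6912 too was lower than control in TyrRS-WT (log2 -2.69), TyrRS-E196K (-2.50) and TyrRS-E196K-NLS (-3.04).

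The DNA repair enzyme phr (2R:7825289-7827319), the photolyase that reverses cyclobutane dimers left by ultraviolet light, was at 24.7, 27.4 and 32.7 CPM in control and at 2.27, 2.89 and 3.20 CPM in TyrRS-WT-NLS (log2 -3.34, adjusted p = 2.15e-09). TyrRS-WT brains had phr at 3.55 to 3.92 CPM, TyrRS-E196K brains at 13.6 to 15.99 CPM and TyrRS-E196K-NLS brains at 2.14 to 3.69 CPM. The other fly photolyase, phr6-4, which repairs a second kind of ultraviolet lesion, went the opposite way, from 0.883, 1.65 and 1.09 CPM to 3.18, 4.01 and 3.84 CPM (log2 1.60, adjusted p = 2.84e-04), and it was also higher than in TyrRS-WT (log2 1.17). TyrRS-E196K brains had phr6-4 at 2.92 to 3.36 CPM and TyrRS-E196K-NLS brains at 3.28 to 4.54 CPM. Of the 18 damage response genes listed, the 3 called were phr, phr6-4 and mre11, a nuclease of double-strand break repair (28.0, 25.6 and 30.3 against 17.5, 22.01 and 21.6 CPM, log2 -0.46, adjusted p = 0.0325). Of all genes tested 3.84% were called. The mre11 call was lost without control 1 (log2 -0.46), without control 3 (-0.40) and without TyrRS-WT-NLS 1 (-0.36), and the median of the list was -0.07 (-0.11 to -0.02 with 1 library left out). FANCI, a Fanconi anaemia protein for crosslink repair outside that list, rose from 2.30, 3.34 and 2.52 CPM to 8.28, 7.86 and 7.79 CPM (log2 1.55, SE 0.17, adjusted p = 1.29e-05). It was higher than in TyrRS-WT by 1.05 (adjusted p = 1.20e-03), and was at 7.21 to 10.4 CPM in TyrRS-E196K-NLS.

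Further named falls included enzymes, transporters and a peptide receptor. GILT3, of a family of lysosomal thiol reductases, was at 9.75, 10.6 and 12.8 CPM in control and at 1.04, 2.40 and 1.70 CPM in TyrRS-WT-NLS (log2 -2.69, SE 0.26, adjusted p = 3.48e-06). The zinc transporter ZnT33D was at 17.6, 12.9 and 11.2 CPM in control and at 4.98, 3.14 and 3.07 CPM in TyrRS-WT-NLS (log2 -1.90, SE 0.26, adjusted p = 5.73e-04). The zinc transporter thus separated the groups, and it was lower than in TyrRS-WT too, where it was at 12.1 to 18.7 CPM (log2 -2.14, adjusted p = 3.10e-04). TyrRS-E196K-NLS brains had ZnT33D at 2.62 to 3.69 CPM, so its fall was not particular to TyrRS-WT-NLS. Ugt86Dd, an enzyme that couples sugars to toxins and hormones, was at 36.2, 29.5 and 45.0 CPM in control and at 9.04, 11.6 and 14.7 CPM in TyrRS-WT-NLS (log2 -1.65, SE 0.18, adjusted p = 3.76e-05), against 40.0 to 46.0 CPM in TyrRS-WT (log2 -1.86, adjusted p = 1.74e-05). Ugt86Dd was also low in TyrRS-E196K, at 9.67 to 11.8 CPM, and in TyrRS-E196K-NLS, at 13.6 to 19.1 CPM. AstC-R1, a receptor for the peptide allatostatin C, was at 55.9, 45.1 and 43.6 CPM in control and at 19.6, 17.6 and 19.5 CPM in TyrRS-WT-NLS (log2 -1.35, SE 0.10, adjusted p = 9.18e-08), with 20.2 to 23.4 CPM in TyrRS-WT. The organic anion transporter Oatp26F (log2 -1.78) and the dynein heavy chain Dhc98D (log2 -1.77) fell by similar amounts from control levels of 2.02 to 2.62 and 5.68 to 7.24 CPM. The rest were CG6654 (log2 -2.30, SE 0.11, adjusted p = 6.32e-10, from 88.4, 93.7 and 92.6 to 15.3, 19.5 and 20.96 CPM), the Osiris family gene Osi2 (-2.56), CG31776 (-2.01) and e(y)2b, a paralogue of a transcription coactivator subunit (-1.39). GILT3, AstC-R1, Oatp26F, Dhc98D, CG6654 and e(y)2b were also called lower than control in TyrRS-WT, TyrRS-E196K and TyrRS-E196K-NLS. Their falls were thus not particular to TyrRS-WT-NLS. The cuticle protein gene Cpr49Ag was lower by 2.13 on this scale (adjusted p = 0.0156), a call lost without control 3 (log2 -2.05), without TyrRS-WT-NLS 1 (-2.06) and without the unnumbered library (-2.05).

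**Figure D3:**
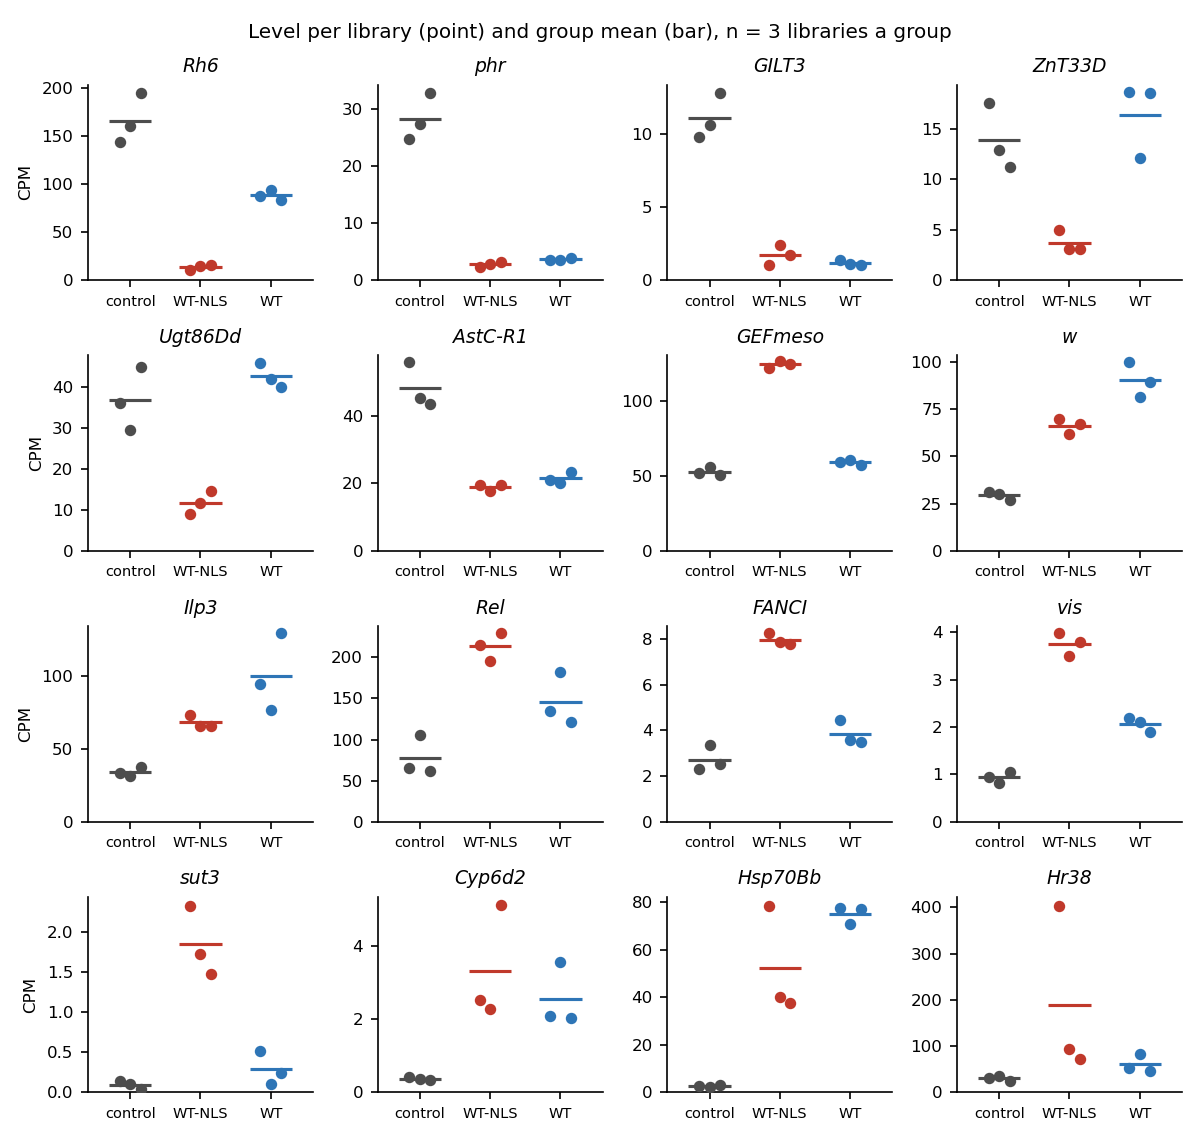
Points are single libraries and bars group means of the CPM of 16 named genes in control, TyrRS-WT-NLS and TyrRS-WT, 3 libraries each, on linear axes from 0. Rh6, ZnT33D and Ugt86Dd are lowest in TyrRS-WT-NLS of the 3 groups shown, GEFmeso is high in it alone at 122 to 127 CPM, and phr and AstC-R1 are low in both transgenic groups. ZnT33D and Ugt86Dd were also below control in TyrRS-E196K-NLS, which is not shown.

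The 10 largest rises among symbols other than CG or CR numbers were mostly from low levels. Apart from Hr38, described below, and FANCI, described above, these genes were under 3 CPM in each control library. The sugar transporter gene sut3 was at 0.141, 0.106 and 0.0455 CPM in control and at 2.32, 1.73 and 1.48 CPM in TyrRS-WT-NLS (log2 4.27, SE 0.50, adjusted p = 4.72e-05). It exceeded TyrRS-WT, at 0.109 to 0.521 CPM, by 2.66 (adjusted p = 2.11e-03), and was at 3.19 to 4.86 CPM in TyrRS-E196K-NLS. Its neighbour CG8713, 398 bp away, was also higher (log2 1.63). The cytochrome P450 Cyp6d2 rose from 0.424, 0.372 and 0.341 CPM to 2.53, 2.28 and 5.11 CPM (log2 3.13, SE 0.38, adjusted p = 8.48e-05). Cyp6d2 was also called higher than control in TyrRS-WT, TyrRS-E196K and TyrRS-E196K-NLS. The homeodomain gene vis rose from 0.954, 0.823 and 1.05 CPM to 3.98, 3.50 and 3.802 CPM (log2 2.00, SE 0.15, adjusted p = 1.95e-07), while its near-identical copy achi, 918 bp away, was lower by 0.56 on the log2 scale (adjusted p = 0.0015), from 15.4, 13.9 and 16.6 CPM to 11.1, 10.1 and 9.89 CPM. Reads shared by the copies may have been split between them, so both values are uncertain. In TyrRS-E196K-NLS vis was at 4.42 to 5.42 CPM. The gene c-cup rose from 1.10, 0.823 and 0.887 CPM to 3.03, 3.24 and 2.70 CPM (log2 1.68) and exceeded TyrRS-WT by 2.05 (adjusted p = 3.36e-04). Its range in TyrRS-E196K-NLS was 2.26 to 3.03 CPM. Ets21C, a transcription factor of the ETS family, went from 2.09, 2.49 and 1.64 CPM to 6.25, 3.89 and 8.62 CPM (log2 1.59, adjusted p = 0.0302), a call lost without control 1 (log2 1.60), control 3 (1.45), TyrRS-WT-NLS 1 (1.59) or the unnumbered library (1.29).

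Among rises whose symbol is a CG or CR number, CR32207 went from 0.848, 1.09 and 0.977 CPM to 4.61, 6.98 and 7.15 CPM (log2 2.68, SE 0.18, adjusted p = 3.49e-08). CG31220 (log2 3.09), CG9733 (2.98), CG7213 (2.81) and CG15475 (2.58) were below 0.4 CPM in each control library. CR32207 and CG31220 were also called higher than control in TyrRS-WT, TyrRS-E196K and TyrRS-E196K-NLS. CG7213 and CG15475 were higher than in TyrRS-WT as well, by 2.12 and 2.16. In TyrRS-E196K-NLS they were at 1.37 to 1.81 and 1.89 to 2.97 CPM, and CG7213 was at 1.63 to 2.25 CPM in TyrRS-E196K. CG13749, which the newer annotation names BaraB, lies 130 bp from FANCI. It rose from 0.247, 0.239 and 0.136 CPM to 1.71, 2.10 and 6.71 CPM (log2 4.08, adjusted p = 0.0164). Its unnumbered library was the highest, and without that library the log2 difference was 3.20. The call was lost without control 1 (log2 4.22) or control 3 (3.84).

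Immune genes were mostly above control, with wide spread between libraries. Of 54 antimicrobial and immune genes, 6 were higher and 1 (GILT3, above) was lower, beside 2.39% and 1.45% of all genes tested. A positive log2 difference was seen in 47, with a median of 1.35 beside 0 over all genes tested. Against TyrRS-WT the median of the list was -0.65, with 1 member higher and 1 lower. The NF-kappa-B factor Rel, of the Imd pathway that answers bacteria, was at 65.7, 105 and 62.1 CPM in control and at 215, 196.1 and 229.9 CPM in TyrRS-WT-NLS (log2 1.46, SE 0.22, adjusted p = 1.98e-03). Its upstream receptor PGRP-LC was at 29.5, 26.9 and 25.3 CPM in control and at 41.6, 41.5 and 46.4 CPM in TyrRS-WT-NLS (log2 0.67, adjusted p = 2.30e-03), and neither gene's groups overlapped. PGRP-LF, an inhibitor of that receptor 1272 bp from it, was at 1.59, 2.63 and 1.68 CPM against 3.79, 6.596 and 6.26 CPM (log2 1.49, adjusted p = 0.0187). The thioester protein gene Tep4 rose from 25.7, 33.9 and 23.4 CPM to 76.9, 76.7 and 86.2 CPM (log2 1.53, adjusted p = 6.92e-04), and stayed below TyrRS-WT, at 137 to 209 CPM (log2 -1.09, adjusted p = 0.015). The serpin nec rose by less (log2 0.50, adjusted p = 0.0218). The peptides that these pathways induce were not called. Mtk was at 10.1, 29.1 and 1.41 CPM in control and at 95.7, 115.8 and 206 CPM in TyrRS-WT-NLS (log2 3.36, adjusted p = 0.164), and AttA at 1.10, 5.02 and 1.02 against 8.50, 10.0 and 44.3 CPM (log2 3.13, adjusted p = 0.315). Both were non-overlapping, with the unnumbered library high. Without control 2, which held the highest control values of Mtk and AttA, 8 of the list were higher with a median of 1.75. Without control 1 or control 3, 3 were higher, and without any single TyrRS-WT-NLS library, 4. The PGRP-LF call was lost without control 1 (log2 1.37), control 3 (1.39), TyrRS-WT-NLS 2 (1.35) or the unnumbered library (1.40), and that of nec in each fit but the one without control 2 (log2 0.42 to 0.53). Against control, Rel, PGRP-LC and nec were also called higher in TyrRS-WT and TyrRS-E196K, and were not called in TyrRS-E196K-NLS. Tep4 was called higher in each of these genotypes, and PGRP-LF in TyrRS-E196K alone of them.

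Of 10 activity-regulated genes, which neurons switch on after firing, 3 were called, beside 3.84% of all genes tested. The fitted log2 difference was positive for each of the 10, with a median of 0.44 beside 0 over all genes, although single TyrRS-WT-NLS libraries of CG8910 and cbt lay below every control library. CG13868 rose from 466, 661 and 442 CPM to 1026, 849 and 922 CPM (log2 0.84, adjusted p = 5.35e-03) with no overlap. The nuclear receptor Hr38 was at 30.4, 36.2 and 23.7 CPM in control and at 404, 93.0 and 72.1 CPM in TyrRS-WT-NLS (log2 2.66, SE 0.64, adjusted p = 0.040). The Jun factor Jra went from 34.0, 40.4 and 38.8 CPM to 50.5, 45.4 and 46.8 CPM (log2 0.34, adjusted p = 0.0498). TyrRS-WT-NLS 1 stood apart in this list. It held Hr38 at 404 CPM, the transcription factor gene sr at 215 CPM beside 43.0 and 42.6 CPM in the others, and CG14186 at 832 CPM beside 270 and 304 CPM. Without it Hr38 had a log2 difference of 1.46 (adjusted p = 0.152), sr of 0.56 (adjusted p = 0.451) and CG14186 of 0.33, and CG13868 was the 1 member called. The Hr38 call was also lost without control 1, 2 or 3 (log2 2.67, 2.81 and 2.51), and that of Jra in each fit but the one without control 2 (log2 0.27 to 0.37).

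**Figure D4:**
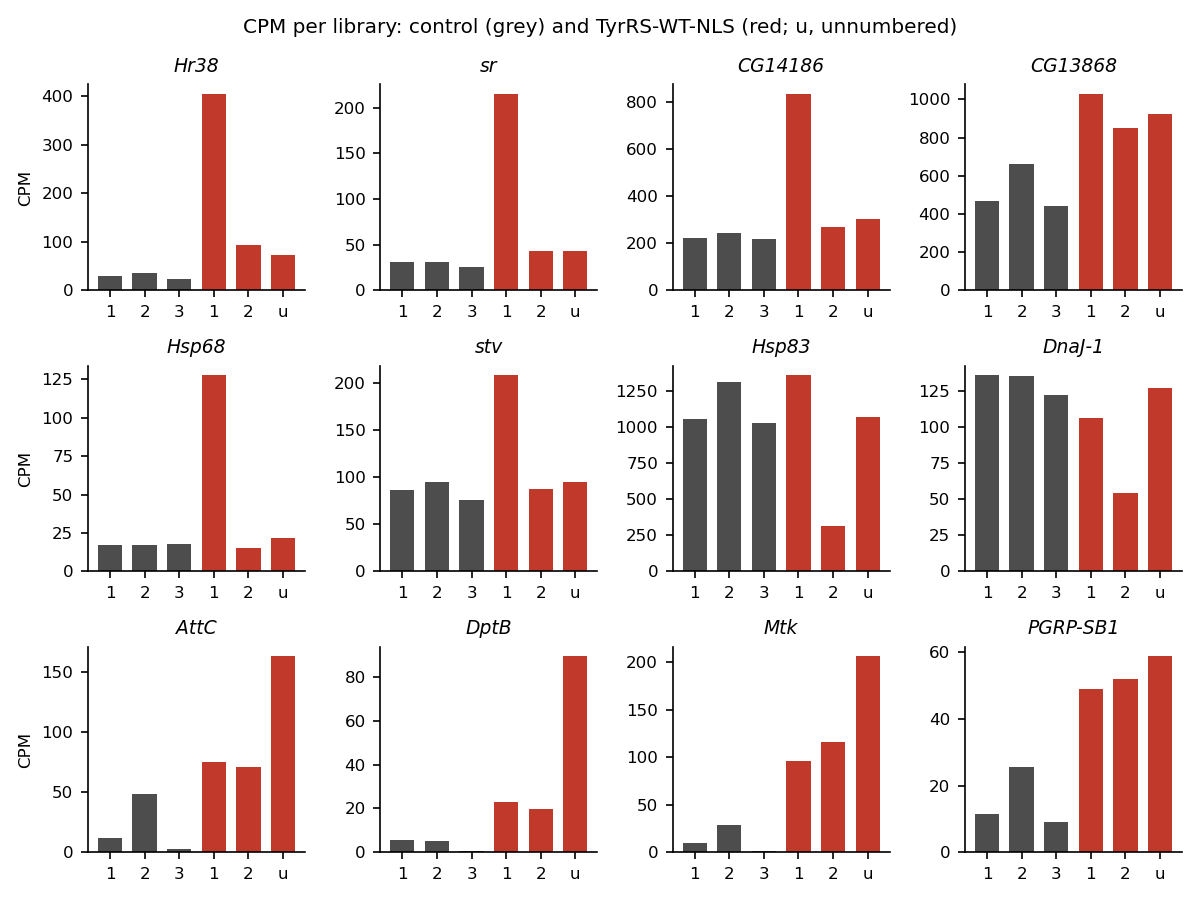
Bars give the CPM of 12 genes in each control library (grey, 1 to 3) and each TyrRS-WT-NLS library (red, 1, 2 and u for unnumbered), on linear axes from 0, with activity-regulated genes in the top row, chaperones in the middle row and immune genes in the bottom row. TyrRS-WT-NLS 1 is high for Hr38, sr, CG14186, Hsp68 and stv, TyrRS-WT-NLS 2 is low for Hsp83 and DnaJ-1, and the unnumbered library is high for AttC, DptB and Mtk.

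Heat shock and chaperone genes did not move together. Of 27 tested, Hsp70Bb was higher, Hsp67Ba was lower (4.28, 3.29 and 3.89 against 2.73, 2.26 and 2.10 CPM, log2 -0.69, adjusted p = 0.0429) and the median was 0.05. The shares of all genes tested were 2.39% higher and 1.45% lower. Hsp68, an inducible chaperone, was at 17.5, 16.9 and 17.7 CPM in control and at 128, 15.1 and 21.4 CPM in TyrRS-WT-NLS, so 1 library carried its log2 difference of 1.65 (adjusted p = 0.204; 0.07 without that library). Hsp83, the fly Hsp90, was at 1053, 1313 and 1026 CPM in control and at 1357, 316 and 1071 CPM in TyrRS-WT-NLS, with library 2 alone low (log2 -0.31, adjusted p = 0.892). The Hsp67Ba call was lost without control 1 (log2 -0.60), control 3 (-0.68), TyrRS-WT-NLS 2 (-0.66) or the unnumbered library (-0.61).

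Translation genes had mostly positive differences of small size. Of the 20 cytosolic aminoacyl-tRNA synthetase genes, 17 had a positive log2 difference, with a median of 0.21 beside 0 over all genes (0.13 with 15 positive without control 1), and 2 were called. The aspartyl enzyme Aats-asp was at 7.70, 13.6 and 9.82 CPM in control and at 16.5, 17.2 and 21.2 CPM in TyrRS-WT-NLS (log2 0.82, adjusted p = 0.0215). The valyl enzyme Aats-val was at 54.5, 65.1 and 55.5 CPM in control and at 72.6, 71.9 and 77.4 CPM in TyrRS-WT-NLS (log2 0.34, adjusted p = 0.0132). Both calls were lost without control 1 (log2 0.65 and 0.30), control 3 (0.78 and 0.31) or the unnumbered library (0.70 and 0.31). Of 93 cytosolic ribosomal protein genes, 87 had a positive log2 difference (median 0.27), and 4 were higher and 1 lower. The shares of all genes tested were 2.39% higher and 1.45% lower. RpS24 was at 397, 477 and 452 CPM in control and at 641, 653 and 516 CPM in TyrRS-WT-NLS (log2 0.45, adjusted p = 0.014), and RpL12 (0.41), RpS3A (0.38) and RpLP0-like (0.44) had like differences. The rarely expressed copy RpL37b was the lower one (log2 -2.59, at 0.318 to 0.477 against 0.0407 to 0.0936 CPM). This list turned on single libraries. Without control 2, 18 ribosomal protein genes were higher, without the unnumbered library 10, without control 3 only RpS24, and without control 1, TyrRS-WT-NLS 1 or TyrRS-WT-NLS 2 none were.

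No gene of 16 in the integrated stress and unfolded protein responses, which slow translation under stress, was called by edgeR. The median of that list was 0.26, 7 genes had an unadjusted p under 0.05, and 2 were called by DESeq2. Of all 16163 genes tested, 16.6% had an unadjusted p under 0.05, and DESeq2 called 1122. The translation repressor Thor was at 53.9, 107 and 73.8 CPM in control and at 80.7, 116 and 104 CPM in TyrRS-WT-NLS (log2 0.35, adjusted p = 0.568), and the stress factor crc at 744 to 821 against 705 to 778 CPM. Of the fly counterparts of nuclear partners of human TyrRS, none of the 5 tested was called by edgeR or DESeq2, 1 had an unadjusted p under 0.05 and their median was 0.06 (-0.03 to 0.09 with 1 library left out, below 0 without control 3 or the unnumbered library). Grainyhead-family factor gem had a log2 difference of 0.06 (adjusted p = 0.847). The cell cycle factor E2f1, which the study followed, was at 122.9, 100.4 and 84.6 CPM in control and at 98.9, 83.6 and 105.9 CPM in TyrRS-WT-NLS (log2 -0.09, adjusted p = 0.732), and its partner Dp differed by 0.01 (adjusted p = 1.0). Of 47 E2F factors and targets, 1 was called, beside 3.84% of all genes tested. RPA2, a subunit of the single-strand DNA binding complex, rose from 3.53, 4.43 and 5.12 CPM to 8.44, 8.39 and 7.98 CPM (log2 0.92, adjusted p = 7.34e-03). The list's median was -0.11, and 11 of its 47 genes had a positive difference. The direction of that median rested on control 3, without which it was 0.02 with 25 genes positive, and without TyrRS-WT-NLS 1 it was -0.04 with 19 positive. Leaving out another library gave medians of -0.21 to -0.14.

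Peptide signalling changed in single genes. Of 42 neuropeptide and peptide hormone genes tested, the insulin-like peptide gene Ilp3 was higher and CCAP, Nplp4 and Trissin were lower. For this list and the receptors below, the shares of all genes tested were 2.39% higher and 1.45% lower. Ilp3, made by the insulin-producing cells of the brain, was at 33.4, 31.2 and 37.5 CPM in control and at 73.1, 65.6 and 65.6 CPM in TyrRS-WT-NLS (log2 1.00, SE 0.17, adjusted p = 2.59e-03). TyrRS-WT brains had 76.5 to 129 CPM and TyrRS-E196K brains, below control, 12.0 to 18.2 CPM. ImpL2, a secreted protein that binds insulin-like peptides, went from 77.2, 81.2 and 83.6 CPM to 201, 141 and 159.5 CPM (log2 1.05, adjusted p = 0.0319). Its call was lost in each leave-one-out fit but the one without TyrRS-WT-NLS 2 (log2 0.90 to 1.08). Crustacean cardioactive peptide gene CCAP was at 3.25, 3.24 and 4.43 CPM against 2.66, 2.12 and 1.55 CPM (log2 -0.79, adjusted p = 0.0285), lost without control 1 (-0.86), control 3 (-0.62), TyrRS-WT-NLS 2 (-0.79) or the unnumbered library (-0.61). Nplp4 fell from 1.52, 1.09 and 1.36 CPM to 0.372, 0.285 and 0.206 CPM (log2 -2.19, adjusted p = 8.68e-04). Eclosion hormone gene Eh was at 0.636, 0.239 and 0.659 CPM against 9.02, 4.30 and 1.20 CPM without a call (log2 3.24, adjusted p = 0.0748). Of 38 receptors, AstC-R1 (above) and the proctolin receptor Proc-R fell, the latter from 56.9, 54.2 and 62.0 CPM to 39.1, 33.6 and 31.3 CPM (log2 -0.74), and the allatostatin A receptor AstA-R2 rose from 5.55, 5.68 and 4.43 CPM to 8.59, 7.74 and 7.81 CPM (log2 0.63, adjusted p = 0.0187). The AstA-R2 call was lost without control 3 (log2 0.52) or TyrRS-WT-NLS 1 (0.58).

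Other neuronal lists held few calls. Of all genes tested 3.84% were called, so counts this small are not a result about these lists. An unadjusted p under 0.05 was seen in 16.6% of all 16163 genes tested, and DESeq2 called 1122 of them. The clock gene per was at 43.0, 38.6 and 47.7 CPM in control and at 71.7, 54.5 and 66.3 CPM in TyrRS-WT-NLS (log2 0.57, adjusted p = 0.0278) and was the 1 called of 11 clock genes. Its partner tim had a log2 difference of 0.21 (adjusted p = 0.835), and the per call was lost without control 1 (0.57), control 2 (0.50), TyrRS-WT-NLS 1 (0.49) or the unnumbered library (0.55). None of 23 genes of tyrosine use and monoamine transmitters was called by edgeR or DESeq2 (4 with an unadjusted p under 0.05). Their median of 0.13 was 0.01 without TyrRS-WT-NLS 1, 0.05 without TyrRS-WT-NLS 2, 0.06 without control 1 and 0.08 without control 3. The tyrosine hydroxylase ple, first enzyme of dopamine synthesis, had means of 55.1 and 66.4 CPM (log2 0.27, adjusted p = 0.652). None of 26 genes of synaptic vesicles and release was called by edgeR, 2 were by DESeq2 and 2 had an unadjusted p under 0.05. Of these 26, 4 had a positive difference and the median was -0.09. Without control 1, 16 were positive with a median of 0.01, and leaving out another library gave 3 to 9 positive and medians of -0.16 to -0.04. The driver's parent gene nSyb, a vesicle protein, had means of 1596 and 1485 CPM (log2 -0.10, adjusted p = 0.662). None of 34 dpr and beat cell recognition genes was called by edgeR or DESeq2 (3 with an unadjusted p under 0.05, median -0.08, and -0.015 without control 1 or -0.05 without the unnumbered library). CG42596, which the newer annotation names dpr21 and which that list missed, was higher (66.3, 64.4 and 74.5 against 105.7, 105.1 and 99.6 CPM, log2 0.60, adjusted p = 4.72e-05); it was noticed after its values were seen.

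Detoxification genes changed in both directions. Of 86 cytochrome P450 genes, which oxidise toxins and hormones, 6 were higher and 2 lower (median 0.08, and 0.02 to 0.16 with 1 library left out). For the lists of this paragraph, the shares of all genes tested were 2.39% higher and 1.45% lower. Beside Cyp6d2, Cyp4p3 rose from 0.565, 1.19 and 0.773 CPM to 2.98, 3.12 and 5.99 CPM (log2 2.24, adjusted p = 2.05e-03), with the unnumbered library the highest for both. Cyp6a14 fell from 22.7, 17.1 and 19.1 CPM to 13.7, 10.3 and 13.6 CPM (log2 -0.65, adjusted p = 4.29e-03). Its neighbours Cyp6a15Psi, a pseudogene with close relatives, and Cyp6a13 were higher (1.07 and 0.77). Cyp317a1 (1.06), Cyp6d4 (0.49) and Cyp28d2 (-0.78) were the rest. Of these 8 genes, Cyp6d2, Cyp4p3 and Cyp6a14 were called in each leave-one-out fit, Cyp6a13 was called in none (log2 0.68 to 0.88, adjusted p = 0.0475 with all libraries), and without control 1 all of the other 4 were lost (log2 1.05 for Cyp6a15Psi, 1.02 for Cyp317a1, 0.46 for Cyp6d4 and -0.75 for Cyp28d2). Cyp6a15Psi was also lost without control 2 (0.93) or TyrRS-WT-NLS 1 (1.01), and Cyp317a1 in each other fit but the one without control 2 (0.92 at the lowest). Cyp6d4 was also lost without control 3 (0.50) or the unnumbered library (0.40), and Cyp28d2 without these (-0.75 and -0.72) or TyrRS-WT-NLS 1 (-0.73). Of 37 glutathione S-transferase genes, GstE1 (26.2, 30.9 and 34.3 against 46.8, 45.5 and 64.0 CPM, log2 0.78, adjusted p = 2.94e-03) and GstE11 (log2 1.09, lost without control 1, 0.97) were higher. Of 17 UDP-glycosyltransferase genes, Ugt86Dd and Ugt86Di (log2 -0.95, lost without control 3, -0.82, or the unnumbered library, -0.84) were lower. Ugt36Bc was higher (log2 0.64, and 0.84 above TyrRS-WT), and its call against control was lost without control 1 (0.59), control 2 (0.51), TyrRS-WT-NLS 1 (0.65) or the unnumbered library (0.53). Of 46 odorant-binding protein genes, Obp99c was higher (334, 331 and 412 against 547, 549 and 453 CPM, log2 0.52, adjusted p = 0.0488), a call lost without control 1 or 2 or TyrRS-WT-NLS 1 or 2 (log2 0.47 to 0.48). None of 27 genes of the mitochondrial genome was called by edgeR or DESeq2, and 1 had an unadjusted p under 0.05, beside 16.6% of all genes tested.

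**Figure D5:**
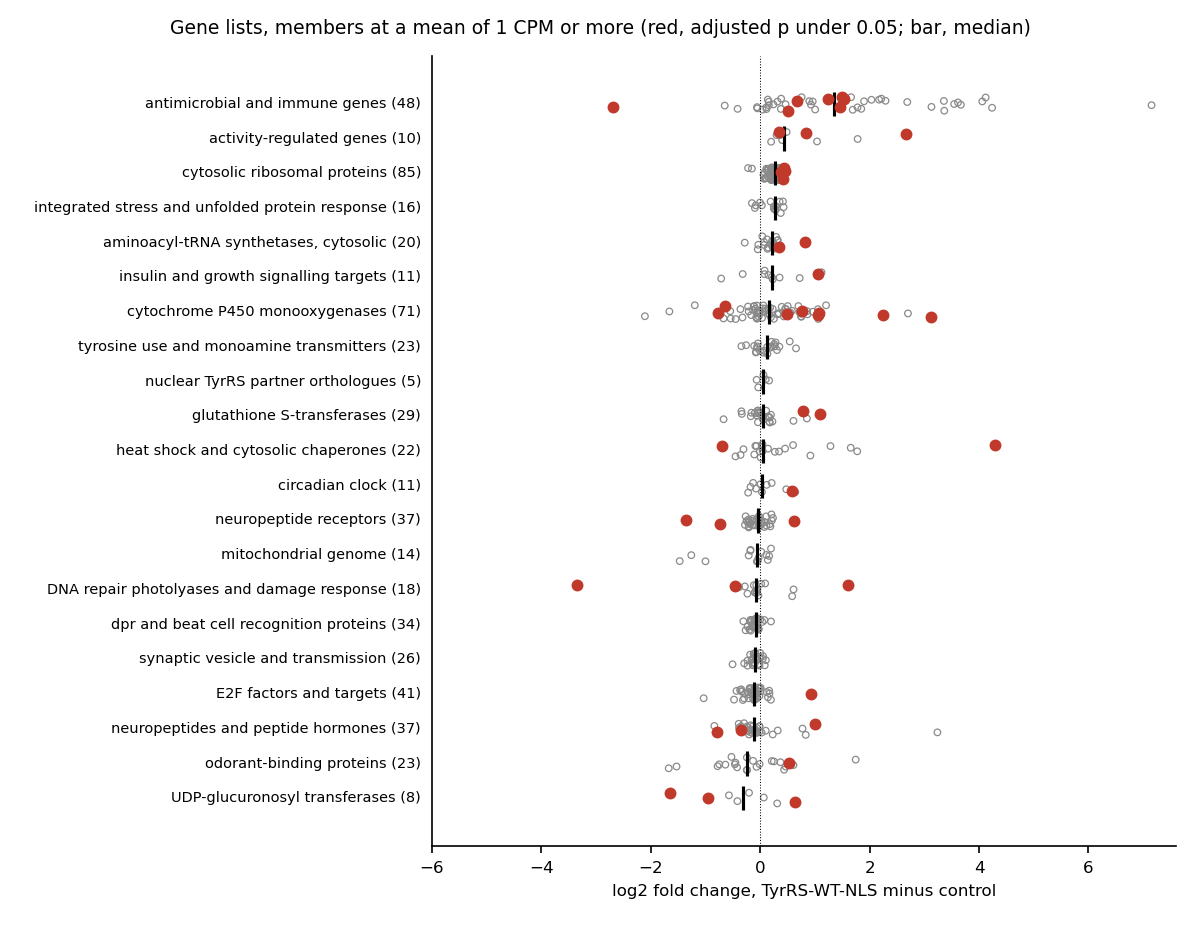
Each circle is a member of a gene list with a mean of at least 1 CPM (the number in brackets), placed by its log2 fold change of TyrRS-WT-NLS minus control; red circles are called genes and black bars list medians. The immune list lies furthest right, with a median of 1.35 over its 48 members shown, most of them not called, and the activity-regulated list is next at 0.44 among the lists drawn, which leave out the pair of w and nSyb.

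TyrRS-WT flies carry the same number of copies with the signal intact, but the lines also differ in insertions and background. As above, they also differ in w and in the transgene expression that the study reports. These differences cannot be told apart from that of the signal. Against TyrRS-WT, 194 genes were called in TyrRS-WT-NLS (1.2% of those tested), 90 higher (0.557%) and 104 lower (0.643%). Of the 620 genes called against control, 93 also differed from TyrRS-WT and 527 did not pass that test, which does not show that their levels were the same. The 93 comprised 51 above both genotypes, 39 below both, w and Tep4 above control and below TyrRS-WT, and CG5142 below control and above TyrRS-WT (6.537, 4.83 and 5.48 CPM in control, 2.68, 2.34 and 2.53 CPM in TyrRS-WT-NLS and 1.25 to 1.40 CPM in TyrRS-WT). Both comparisons use the same 3 TyrRS-WT-NLS libraries, so they are not independent. The count against TyrRS-WT was 126 without TyrRS-WT 1, 107 without TyrRS-WT 3, 121 without TyrRS-WT-NLS 1 and 118 without TyrRS-WT-NLS 2. Among genes below both, spartin, the fly counterpart of a spastic paraplegia gene, was at 28.5, 27.9 and 32.1 CPM in control and at 12.8, 11.6 and 15.1 CPM in TyrRS-WT-NLS, against 34.9 to 37.7 CPM in TyrRS-WT (log2 -1.16 against control, adjusted p = 2.77e-06). Corin, of a family of transmembrane serine proteases, was below both by 0.91 and 0.77 on the log2 scale. Among genes above both, CG33296 was at 29.0, 55.1 and 34.4 CPM in control, at 147, 145 and 134 CPM in TyrRS-WT-NLS and at 20.4, 34.6 and 34.6 CPM in TyrRS-WT, and Mis12, a kinetochore protein, exceeded control by 1.00 and TyrRS-WT by 1.24. The genes spartin, Corin, CG33296 and Mis12 fall outside the naming rule and were chosen after their values were seen.

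A further 101 genes differed from TyrRS-WT and not from control. The largest was Hsc70-2, a chaperone of the Hsp70 family, which was at 0 to 0.212 CPM in control and at 0.242, 0.0611 and 0.244 CPM in TyrRS-WT-NLS, beside 69.1, 58.6 and 67.6 CPM in TyrRS-WT (log2 -8.44, SE 0.54, adjusted p = 1.71e-06). Its 3R neighbours CG31157 (log2 -7.40) and CG7966 (-1.14) were also lower than in TyrRS-WT, with control at 0.182 to 0.495 and at 30.3 to 49.0 CPM. The DNA polymerase theta gene mus308 was at 9.61, 9.55 and 9.14 CPM in control and at 8.93, 8.29 and 10.4 CPM in TyrRS-WT-NLS, against 18.4 to 24.9 CPM in TyrRS-WT (log2 -1.21, adjusted p = 3.17e-06). Topors, a ubiquitin ligase, was at 38.1 to 39.8 CPM in control and at 36.4 to 39.4 CPM in TyrRS-WT-NLS, against 68.0 to 90.1 CPM in TyrRS-WT (log2 -1.07). The genes of this paragraph too were chosen after their values were seen.

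Of all genes tested, 7 (0.0433%) differed in one direction between TyrRS-WT-NLS and each of the 4 other genotypes. GEFmeso (2R:18554119-18611777), an exchange factor for small GTPases, was at 52.4, 56.1 and 50.7 CPM in control and at 122, 127 and 125 CPM in TyrRS-WT-NLS (log2 1.23, SE 0.07, adjusted p = 3.41e-09). All 14 other libraries lay between 50.7 and 68.8 CPM, and the log2 differences were 1.07 from TyrRS-WT, 0.96 from TyrRS-E196K and 1.15 from TyrRS-E196K-NLS. CG42697 (2R:18611645-18612730), which overlaps the start of GEFmeso by 133 bp on the same strand, was at 0.141, 0.212 and 0.205 CPM in control and at 0.484, 0.774 and 0.599 CPM in TyrRS-WT-NLS (log2 1.70, adjusted p = 0.0183). Reads in the overlap cannot be assigned, so CG42697 is uncertain, and its call was lost without control 1 (log2 1.56), control 3 (1.77) or TyrRS-WT-NLS 2 (1.51). Rh6 is described above. CG13325 was at 9.26, 7.06 and 7.80 CPM in control and at 5.34, 4.23 and 5.28 CPM in TyrRS-WT-NLS (log2 -0.70, adjusted p = 5.61e-03), with 6.97 to 12.3 CPM over the 11 other transgenic libraries. The non-coding RNA gene CR45199 on chromosome 4 was at 0.141, 0.186 and 0.0455 CPM in control and at 1.25, 1.65 and 1.07 CPM in TyrRS-WT-NLS (log2 3.42, SE 0.44, adjusted p = 1.25e-04), and stood 3.15 to 3.69 above the transgenic genotypes. Tep1, another thioester protein gene, was at 1.63, 1.86 and 1.71 CPM in control and at 5.88, 3.62 and 2.81 CPM in TyrRS-WT-NLS (log2 1.25, adjusted p = 0.0207), a call lost without control 1 (log2 1.21), control 3 (1.23) or TyrRS-WT-NLS 1 (0.89). CG5882 was at 0.565, 0.424 and 0.727 CPM against 1.10, 1.26 and 1.01 CPM (log2 0.97, adjusted p = 0.0488) and lost its call without any 1 of the 6 libraries (log2 0.79 to 1.19). The 7 became 4 without control 3, TyrRS-WT 2, TyrRS-WT 3 or TyrRS-WT-NLS 1, and 3 without TyrRS-WT-NLS 2.

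Called genes were spread over the chromosomes. They made up 2.65% of tested genes on X, 4.38% on 2L, 4.56% on 2R, 3.7% on 3L, 3.77% on 3R and 6.42% of the 109 on chromosome 4. Of 491 called genes with coordinates and a mean of at least 1 CPM, 119 lay in 57 runs of neighbouring called genes, none longer than 3, and 42 of the runs moved in one direction. Neighbours here are next in start order among genes at that level, and can be far apart, as CG40498 and rl at 120209 bp. The number of runs, or of runs in one direction, that chance would give was not tested. On X the immune protease genes Hayan and psh and their neighbour CG15046 were all higher (log2 0.89, 0.50 and 0.78). On 3R CG6654 and CG4210, 315 bp apart, were both lower (-2.30 and -1.33). Of the 62 neighbouring pairs in runs, 11 overlapped, 9 of these on opposite strands, where unstranded reads cannot be assigned.

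Transcripts of brain cells were measured in both groups. Summed CPM of 7 pan-neuronal markers was 5876 to 8345 in control and 5348 to 7044 in TyrRS-WT-NLS, and that of 10 glial markers 4623 to 5088 and 4492 to 4950, with no member called. Transcripts of tissue around the brain were measured too. Fat body markers summed to 5432 to 6154 CPM in control, beside 3694 to 5873 CPM in the transgenic brains, haemocyte markers to 1380 to 1473 and 1259 to 1551 CPM, and the 3 yolk protein genes of females to 22551 to 30717 and 17152 to 31232 CPM. Muscle markers summed to 297 to 851 CPM in control, highest in control 2, and to 475 to 605 CPM in TyrRS-WT-NLS, where the actin Act79B was higher (log2 0.60, adjusted p = 0.0234). The 2 genes of the corpora cardiaca and allata, Akh and jhamt, summed to 48.2 to 87.7 CPM in control and to 99.6 to 134 CPM in TyrRS-WT-NLS without overlap, though neither was called. No tested marker was at 0 in all 6 libraries. Of 15 retina markers listed, 14 were tested, as ninaA had no count in any library of the series. The part of these tissues in the immune, peptide and detoxification results was not tested.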

How the data were processed

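Brain RNA was sequenced from poly(A)-selected, unstranded libraries. The authors trimmed reads with Trimmomatic 0.32, mapped them with TopHat2 2.0.12 to BDGP6 and counted them per gene with HTSeq 0.6.1, and they deposited these counts without normalization. They compared genotypes with DESeq2 1.14.1 and a batch factor. The batch of each library is not named in the sources used here, so no batch term was fitted. The deposited table of normalized values was not used here. The count table held 17565 lines, 6 of them not genes, and 16163 of 17559 genes had a non-zero count. Reads in several genes made up 4.87% to 6.32%, and reads in no gene 2.57% to 3.80%, of the reads in genes and these classes together, and were left out. It had 0 columns of other samples. Coordinates come from a BDGP6 annotation that matched 17253 identifiers. Genotypes were taken from the sample labels.

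Counts of all 17 libraries were fitted once with edgeR 4.0.16 (R 4.3.3, limma 3.58.1), with TMM scaling, genotype as the only term and a robust quasi-likelihood fit, and p-values were adjusted over all 16163 genes. The robust setting was kept after both settings had been run with results in view. The SE is the size of the log2 fold change divided by the square root of F. Both tools were tested on simulated counts of 15970 genes, with 200 that averaged at least 1 CPM changed in TyrRS-WT-NLS. There edgeR recovered 90% of 2-fold rises, 34% of 1.5-fold rises and 74% of 2-fold falls, with 4 false calls. DESeq2 1.42.0 recovered 94%, 50% and 80%, with 28. Simulated counts were drawn independently, with no shifts shared by the genes of a library, so these rates need not hold in the data. At this depth genes under 1 CPM rest on few reads.

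Alternatives were DESeq2's Wald test, its size factors within edgeR, the filterByExpr gene filter, a fit of both genotypes' libraries alone, a replicate block, a surrogate variable (1, by sva 3.50.0), an adjusted p under 0.1 and leaving out each library. The non-robust fit and the 16 numbered libraries without the block were added after seeing the data. The replicate numbers do not pair the libraries, since the labels give no shared litter, batch or day and only 2 numbers occur in both groups.

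Named genes are the 10 largest called rises and falls that averaged 1 CPM or more without overlap, the same among genes whose symbol is not a CG or CR number, called list members, genes called against each of the 4 other genotypes, and TyrRS, E2f1, Dp, gem and w; others were chosen after their values were seen. Members and lists were chosen with earlier results of these data known. A planned description of promoter motifs was not done, as no promoter sequences were used here. Tables were made with Python 3.11.15, numpy 2.4.6, pandas 2.3.3 and scipy 1.17.1.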

Additional observations from a re-analysis of the deposited data

Results flagged for a closer look

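In groups of 4 libraries the highest or lowest value was compared with the others by Dixon's ratio, for 19 genes in 2 genotypes, and 3 of the 38 tests passed the critical value, which chance alone passes in about 1 of 20 groups. All 3 were in TyrRS-E196K-NLS, the other genotype with the signal disrupted. The non-coding RNA CR45199 was at 0.205 CPM in the highest of the 4 libraries, far from the others, and still below the 3 TyrRS-WT-NLS libraries. The photolyase phr was at 3.69 CPM in 1 library, above the other three, and the zinc transporter ZnT33D at 2.62 CPM in 1 library, below the other three. No difference between groups of samples was tested beyond those in the report.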

How the results depend on the processing

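Against control, the count of 620 was 1122 with DESeq2's Wald test, 1004 at an adjusted p under 0.1 and 353 with the replicate number as a block, for which the 16 numbered libraries gave 530 with no replicate block. The deviations of same-numbered TyrRS-WT-NLS and control libraries correlated at -0.314 and 0.278, so the numbers do not pair them. Leave-one-out fits gave 298 to 774. Against TyrRS-WT, the count of 194 was 328 with DESeq2 and 131 with the replicate block (173 without it), and 107 to 173 in leave-one-out fits. The 7 genes called against each other genotype were 12 with DESeq2, 4 with 1 surrogate variable, 6 with the replicate block and 3 to 8 with 1 library left out. Every other setting kept these counts within 1.5 times. None of the 620 changed sign in any of these fits. Of the 620, 605 were called by DESeq2, 308 with the replicate block and 284 to 512 with 1 library left out. Of the 77 named genes, 26 lost their call against control with the replicate block, 16 with only the libraries of both genotypes, 6 with 1 surrogate variable and 8 to 28 with 1 library left out. The 3 shallower control libraries enter every comparison with control. The cause of these shifts was not tested, apart from the fewer libraries that some settings use.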
